A study of Homo sapiens with 4 samples.

Results

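The genes described here are the cadherins CDH1 and CDH2, the catenins CTNND1 and CTNNA1 that bind them, the intermediate filament gene VIM, and the transcription factors ZEB1, ZEB2, SNAI1, SNAI2 and TWIST1, which are used as readouts of the epithelial to mesenchymal transition (EMT). They were chosen by name, as all probe sets that the array annotation assigns to 1 listed gene, and 9 of the 10 listed genes had such a probe set, out of 19775 named genes on the array. They held 23 of the 41097 probe sets with 1 gene. The samples came from PLC8024, a human hepatocellular carcinoma cell line, whose cells were sorted by flow cytometry for CD133, a surface protein encoded by PROM1. There was 1 CD133+ population and 1 CD133- population, with no treatment named in the labels, each deposited as RMA values on the log2 scale and as MAS5 intensities on a linear scale. There was no replicate of either, so the spread between sorts or cultures is unknown and no test was run.

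E-cadherin, the CDH1 product, joins epithelial cells through calcium-dependent contacts, and N-cadherin, the CDH2 product, does the same in neural and mesenchymal cells. Inside the cell p120-catenin (CTNND1) keeps cadherins at the surface and alpha-catenin (CTNNA1) couples them to actin. In EMT the zinc finger factors ZEB1, ZEB2, SNAI1 and SNAI2 repress CDH1 through E-box sequences, TWIST1 acts in the same programme, N-cadherin commonly replaces E-cadherin, and vimentin, the filament protein of mesenchymal cells, commonly increases. Normal hepatocytes carry both E-cadherin and N-cadherin.

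The expression floor was the median of each RMA column, 5.16 in CD133+ and 5.14 in CD133-, and a gene passed it on its larger RMA value. A gene past the floor was counted as higher or lower where RMA and MAS5 both gave 2-fold or more the same way. Where a gene had several probe sets, the one with the greatest mean RMA level over the populations stood for it. PROM1 had RMA levels of 10.35 in CD133+ and 6.04 in CD133-, the direction of the labels.

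Of the 9 genes, 6 were above the floor, and 1 of these, CDH1, was counted as higher and 1, VIM, as lower in CD133+. Over all 13116 genes above the floor the shares were 2.25% for higher, 1.09% for lower and 3.34% for either direction. Of the 13 probe sets above the floor 3 were counted, 2 of CDH1 and 1 of VIM, where 3.05% of all named probe sets above the floor were. The other 4 genes above the floor, CDH2, CTNNA1, SNAI1 and ZEB1, were not counted. ZEB2, SNAI2 and TWIST1 were below the floor. The median RMA difference of the 6 genes was 0.11, against 0.00 over all genes above the floor, and 3 of the 6 were above 0. The genes thus did not shift in 1 direction.

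**Figure D1:**
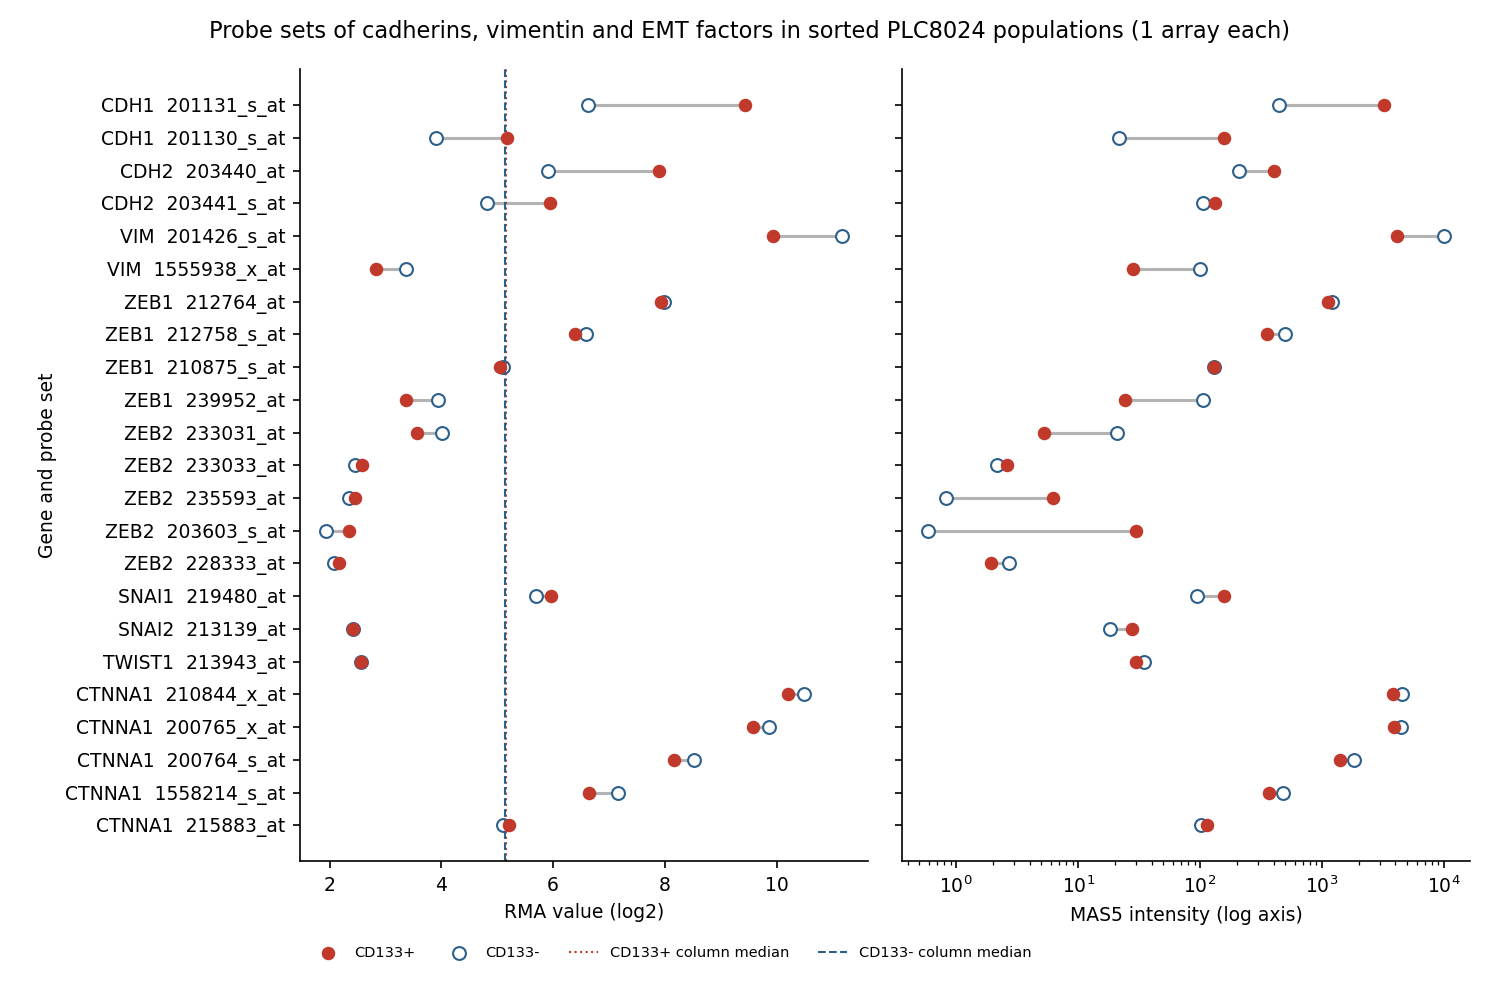
RMA values (left, log2) and MAS5 intensities (right, log axis) of the 23 probe sets, 1 per row, with filled points for CD133+ and open points for CD133-. Vertical lines mark the median of each RMA column. CDH1 and CDH2 lie further right in CD133+, the brighter VIM probe set lies further left, and all ZEB2, SNAI2 and TWIST1 probe sets lie left of the medians.

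CDH1 had RMA levels of 9.43 in CD133+ and 6.62 in CD133-. Its MAS5 intensities were 3223 in CD133+ and 441.3 in CD133-. CDH1 was thus 6.99-fold higher in CD133+ in RMA and 7.30-fold higher in MAS5, with the CD133- value still above the floor. In sorted bulk RNA fewer cells with a transcript and less of it per cell cannot be told apart. This RMA difference of 2.81 ranked 25 in the direction of CD133+ among the 13116 genes above the floor. The other CDH1 probe set was dim, with RMA levels of 5.17 in CD133+ and 3.90 in CD133-, which is under the floor. It differed by 1.28 in RMA and by 2.85 in MAS5 and met the same count rule. The RMA differences of the CDH1 probe sets lay 1.53 apart. Such gaps had an SD of 0.35 across the 6170 genes that had another probe set past the floor, and 0.373% of these genes had a gap as large. In MAS5 the log2 ratios of the CDH1 probe sets were close, 2.87 and 2.85, where such gaps had an SD of 0.79. Both probe sets are of the _s_at type, whose probes can match more than 1 transcript, so CDH1 had no value left without that type.

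CDH2 was also higher in CD133+ in both processings, but was not counted. Its brighter probe set had RMA levels of 7.90 in CD133+ and 5.92 in CD133-, a difference of 1.99. In MAS5 the same probe set read 404.6 in CD133+ and 207.8 in CD133-, a log2 ratio of 0.96, just short of the 2-fold threshold of 1. It was therefore counted in RMA alone, where 2.39% of genes above the floor were higher, and at a threshold of 1.5-fold in both processings, where 5.32% were. The other CDH2 probe set had RMA levels of 5.94 in CD133+ and 4.81 in CD133-. It differed by 1.12 in RMA and by 0.33 in MAS5. The direction was shared by both probe sets and both processings, while the size ranged from 0.33 to 1.99 on the log2 scale. The RMA differences of the CDH2 probe sets lay 0.86 apart, against the SD of 0.35 for such gaps, and 2.41% of the 6170 genes had a gap as large. In MAS5 the SD of such gaps was 0.79, more than the gap between these MAS5 ratios.

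VIM differed the other way. Its brighter probe set had RMA levels of 9.93 in CD133+ and 11.17 in CD133-, with MAS5 intensities of 4103 in CD133+ and 10038 in CD133-. VIM was 2.36-fold lower in CD133+ in RMA and 2.45-fold lower in MAS5, and it ranked 110 among the 13116 genes in that direction. It remained above the floor in both populations. The other VIM probe set lay below the floor, with RMA levels of 2.82 in CD133+ and 3.37 in CD133-, and had a difference of -0.55. As with CDH1, neither probe set remained without the _x_at and _s_at types.

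**Figure D2:**
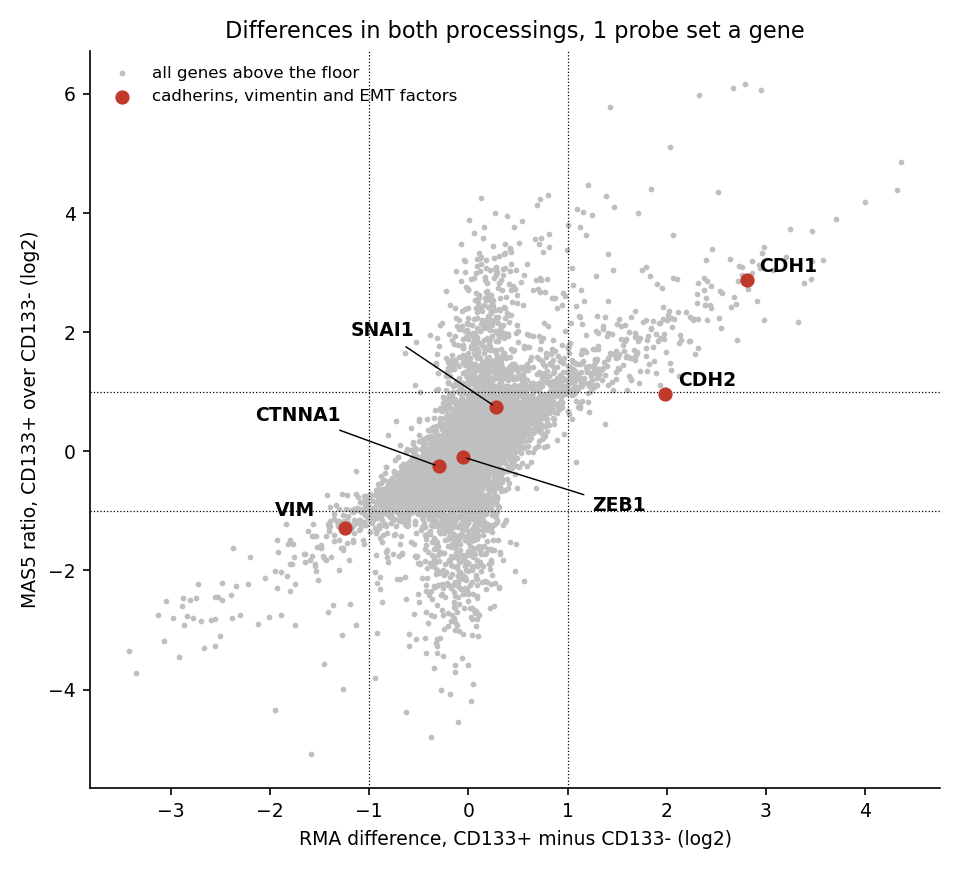
RMA difference (x, log2) against log2 MAS5 ratio (y) of CD133+ over CD133- for the 13116 genes above the floor (grey), with the 6 cadherin, vimentin and EMT genes among them in red. Dotted lines mark a 2-fold difference. CDH1 lies in the upper right and VIM in the lower left corner, while CDH2 passes the line in RMA and stops at 0.96 in MAS5.

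Among the EMT transcription factors, ZEB1 and SNAI1 were above the floor and neither differed by 2-fold. ZEB1 had RMA levels of 7.92 in CD133+ and 7.98 in CD133- in its brightest probe set, a difference of -0.06, and MAS5 intensities of 1129 in CD133+ and 1205 in CD133-. Another one past the floor differed by -0.20, and the 2 below the floor had differences of -0.05 and -0.57. All 4 ZEB1 probe sets were thus lower in CD133+, by amounts of which only the largest, in a dim probe set, exceeded the RMA spread of 0.35. SNAI1, with 1 probe set, had RMA levels of 5.97 in CD133+ and 5.69 in CD133-. Its MAS5 intensities were 158.0 in CD133+ and 94.4 in CD133-, a log2 ratio of 0.74 against an RMA difference of 0.28. Both differences are smaller than the SD of the gap between probe sets of 1 gene in their processing. That SD describes a gap between 2 differences and not the noise of 1 difference, so it does not place ZEB1 or SNAI1 within noise. It compares probe sets above the floor on the same arrays and leaves out the spread between sorts, cultures and arrays.

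ZEB2, SNAI2 and TWIST1 gave no level above the floor in either population. The 5 ZEB2 probe sets had RMA values from 1.93 to 4.02, MAS5 intensities from 0.586 to 29.9, and RMA differences from -0.46 to 0.41 with no common sign. SNAI2 had an RMA value of 2.41 and TWIST1 one of 2.56, each identical in CD133+ and CD133-. Such ties held for 3211 probe sets, 5.87% of the array. In MAS5 SNAI2 read 27.5 in CD133+ and 18.3 in CD133-, and TWIST1 29.8 in CD133+ and 34.8 in CD133-. The files used here hold no detection calls, so a low level cannot be told apart from no transcript.

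The cadherin-binding catenins were above the floor with small differences. CTNNA1 had RMA levels of 10.20 in CD133+ and 10.50 in CD133- in its brightest probe set, and MAS5 intensities of 3809 in CD133+ and 4542 in CD133-. Its 5 probe sets ran from -0.52 to 0.10 in RMA, and the positive one was the dimmest. That dimmest probe set is the one left without the _x_at and _s_at types, so the sign for CTNNA1 depends on the probe set. CTNND1 had no probe set of its own, since its 4 probe sets are annotated jointly to CTNND1 and the readthrough locus TMX2-CTNND1, and it entered no count. These joint probe sets had RMA values from 6.78 to 7.79 over both populations, with differences from -0.08 to 0.25 in RMA and from -0.12 to 0.42 in MAS5. None reached 2-fold.

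Promoter sequence is shown for CDH2 and VIM, which differed in opposite directions, and for ZEB1, an EMT factor above the floor that did not reach 2-fold. The RefSeq promoter table used (GRCh38.p14) held entries for 5 of the 10 listed genes. The 250 bases before the annotated gene start are printed 5′ to 3′ on the gene's strand, with capitals for every E-box (CANNTG, with its SNAI and ZEB form CAGGTG) and every GC box (GGGCGG), searched on both strands. CDH2 is at chr18:28177131-28177380 (minus strand), VIM at chr10:17227991-17228240 (plus strand) and ZEB1 at chr10:31318167-31318416 (plus strand).
CDH2: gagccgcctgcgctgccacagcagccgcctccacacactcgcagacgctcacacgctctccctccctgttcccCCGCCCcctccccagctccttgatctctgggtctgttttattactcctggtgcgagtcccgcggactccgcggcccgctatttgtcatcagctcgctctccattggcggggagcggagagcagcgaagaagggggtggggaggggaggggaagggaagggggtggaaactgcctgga
VIM: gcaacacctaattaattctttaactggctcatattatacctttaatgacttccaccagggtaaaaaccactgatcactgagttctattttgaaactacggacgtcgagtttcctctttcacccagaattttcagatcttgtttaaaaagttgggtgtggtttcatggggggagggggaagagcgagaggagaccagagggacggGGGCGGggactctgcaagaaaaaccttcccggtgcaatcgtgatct
ZEB1: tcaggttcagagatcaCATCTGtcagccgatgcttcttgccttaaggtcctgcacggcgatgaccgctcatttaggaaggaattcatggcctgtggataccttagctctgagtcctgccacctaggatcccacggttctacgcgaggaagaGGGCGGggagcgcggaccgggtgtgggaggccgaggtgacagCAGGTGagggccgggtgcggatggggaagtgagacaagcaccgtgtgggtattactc
In the CDH2 and VIM windows the search matched no E-box and 1 GC box each, 177 bases before the start in CDH2 and 46 in VIM. The ZEB1 window held 2 E-boxes, 1 of them CAGGTG at 57 bases before the start, and 1 GC box. Across all 35116 windows of this length 61.8% held CANNTG, 17.5% CAGGTG or its reverse complement, and 42.6% a GC box.

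Position on the chromosome was compared after the values were seen. In the order of genes above the floor on chromosome 18, CDH2 is followed directly by DSC2 and DSG2, which encode the desmosomal cadherins desmocollin-2 and desmoglein-2. DSG2 had RMA levels of 9.78 in CD133+ and 7.71 in CD133-. It was 4.22-fold higher. DSC2 had RMA levels of 7.36 in CD133+ and 5.49 in CD133-. It was 3.66-fold higher. Both were counted as higher, and another probe set past the floor differed by 1.20 in DSG2 and by 1.23 in DSC2. The remaining 2 probe sets of DSC2, below the floor, had differences of -0.09 and 0.11. Genes below the floor were left out of this order, so other genes may lie between these 3. CDH2, DSC2 and DSG2 had RMA differences of 1.99, 1.87 and 2.08, and CDH2 was not counted. The other 18 of the 20 nearest genes above the floor were not counted either and ran from -0.90 to 0.63. Around CDH1 on chromosome 16 none of the 20 nearest genes was counted, with differences from -0.45 to 0.95. CDH3, the adjacent gene for P-cadherin, differed by 0.19 in RMA and by -0.43 in MAS5. Its MAS5 intensities were low, 6.69 in CD133+ and 9.04 in CD133-. Around VIM on chromosome 10 only SPAG6, the farthest neighbour on one side, was counted, at -1.26.

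**Figure D3:**
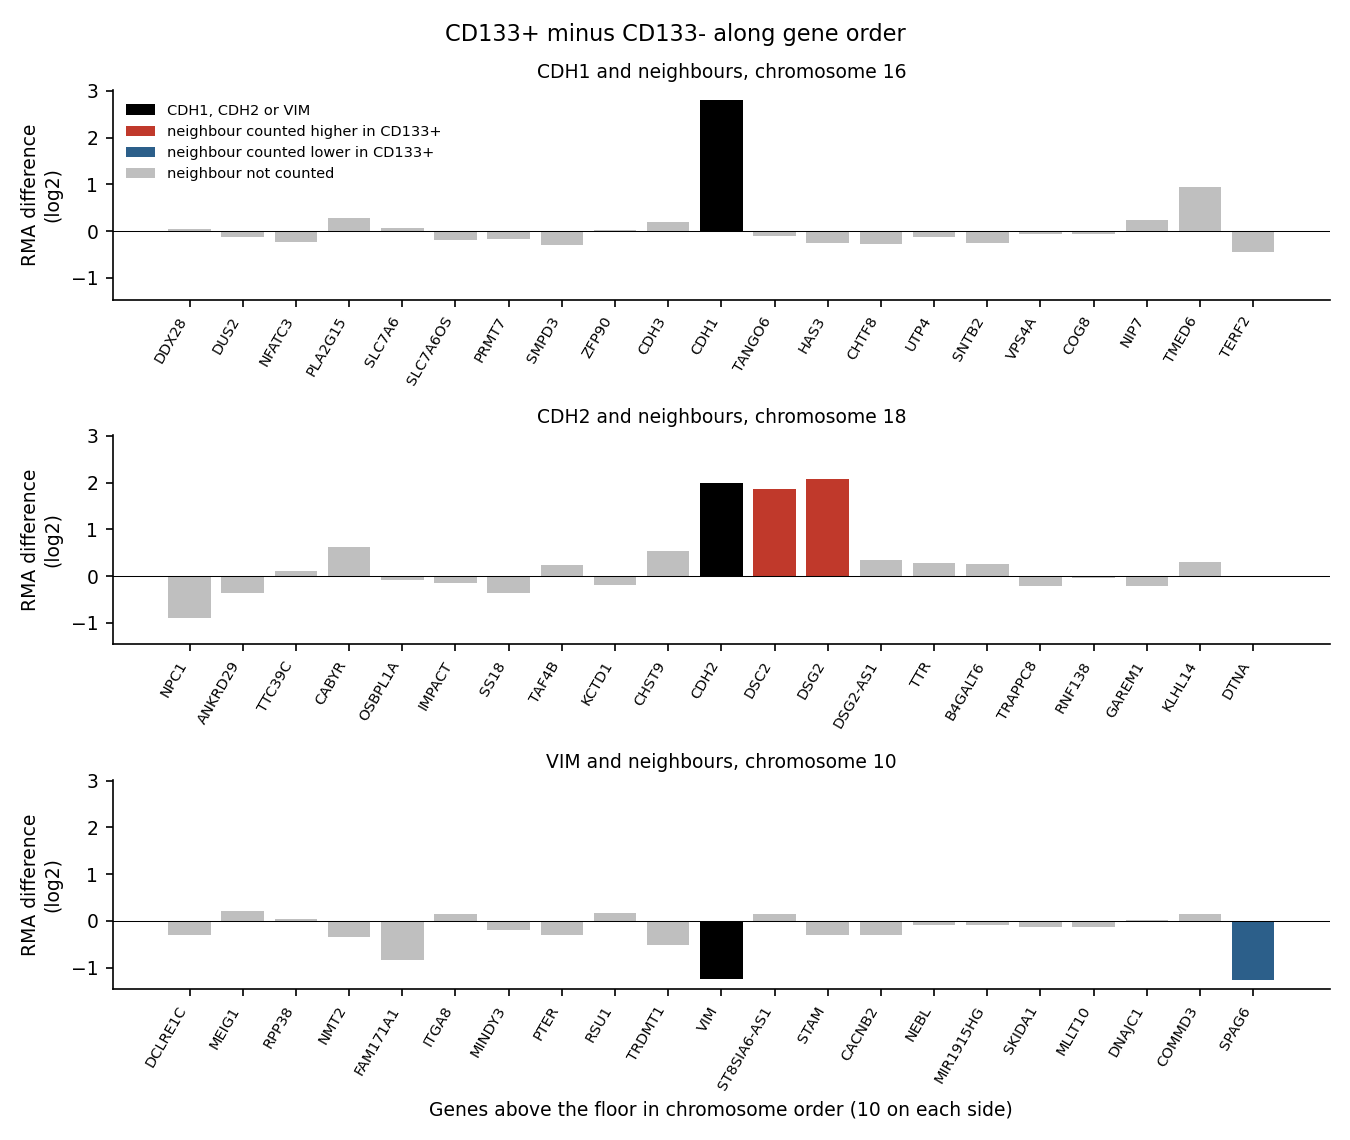
RMA difference (log2) of CDH1, CDH2 and VIM (black bars) and the 10 genes above the floor on each side in chromosome order, with counted neighbours coloured. DSC2 and DSG2, next to CDH2 once genes below the floor are left out, reach 1.87 and 2.08, and no neighbour of CDH1 was counted.

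Genes that share a function with these were described from lists. Among the other classical and related cadherins 17 of 19 had a probe set, 7 were above the floor, 1 was counted as higher and none as lower. CDH19, a cadherin of neural crest and glial cells, had RMA levels of 6.57 in CD133+ and 4.89 in CD133-, with the CD133- value under the floor. It differed by 1.68 in RMA and by 1.99 in MAS5. Its other 2 probe sets, below the floor, had RMA differences of 0.69 and 0.77. The other 6 cadherins above the floor, among them CDH17, CDH11 and CDH3, ran from -0.31 to 0.31. Of 15 other catenin complex and adherens junction genes above the floor none was counted, and the list's median was 0.02. The nectin gene NECTIN3 had an RMA difference of 0.69 with a CD133- value under the floor, the actin linker VCL one of 0.46, and the cadherin-binding phosphatase PTPRM one of 0.40. CTNNB1, which encodes beta-catenin and was picked after its values were seen, had RMA levels of 11.34 in CD133+ and 11.54 in CD133-. CDH1, CDH2 and CDH19 had the largest RMA differences of the classical and related cadherins above the floor, each above these 15 genes and CTNNA1. They were singled out by value, and the other 6 cadherins, at most 0.31, lay below NECTIN3, VCL and PTPRM. Passing the RMA floor is no detection call. In MAS5 CDH3 read 6.69 in CD133+ and 9.04 in CD133-, and CDH24 read 20.3 in CD133+ and 69.3 in CD133-. CDH17 read more, 174.6 in CD133+ and 310.7 in CD133-. A small difference at such low intensities may come from a gene with little or no transcript. The values thus do not set cadherins as a group apart from these genes, nor show that they are alike, and no test was run.

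Of the 11 other EMT transcription factors above the floor, 1 was counted as higher and 1 as lower, and the median was 0.18. PRRX1, a homeobox factor of mesenchymal cells that can drive EMT, had RMA levels of 7.37 in CD133+ and 4.41 in CD133-, with the CD133- value under the floor. It differed by 2.96 in RMA and by 3.33 in MAS5, and its other probe set past the floor by 1.67 in RMA. SOX9, a factor of the biliary lineage, was 2.90-fold lower in CD133+. The listed epithelial-state factors and splicing regulators gave no counted gene among 8 above the floor, with a median of -0.02. KLF4 had a difference of -0.70, GRHL1 one of -0.43 and OVOL2 one of 0.69, its CD133- level being under the floor. GRHL2, which maintains CDH1 expression in epithelia, and the splicing regulator ESRP1 were among the 5 below the floor.

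None of the 15 corepressors of the SNAI, ZEB and TWIST factors was counted, at a median of -0.01. The largest differences were -0.59 for the Polycomb subunit SUZ12, -0.48 for the methyltransferase PRMT5 and -0.36 for LOXL2, whose other probe set past the floor had 0.84. None of 12 regulators of SNAI and TWIST protein stability was counted either, at a median of -0.26. Of the 12, 10 had an RMA difference below 0, as did 49.9% of all genes above the floor. COPS2, a signalosome subunit, had a difference of -0.61, the ubiquitin ligase subunit FBXO45 one of -0.52 with other probe sets at -1.41 and 0.19, and the kinase CSNK1A1 one of -0.36. Among 14 cadherin proteases, ubiquitin ligases and traffic genes none was counted, at a median of 0.04. FURIN, a proprotein convertase, had a difference of -0.68, RAB5A, which acts in early endosomes, one of -0.53, and the exocyst subunit EXOC4 one of 0.40.

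The epithelial junction and keratin list had 26 genes above the floor, of which 3 met the count rule as higher and 1 as lower, at a median of 0.08. Besides DSG2 and DSC2, the biliary keratin KRT19 differed by 2.95 in RMA and by 6.06 in MAS5, its CD133- level being under the floor, and its other probe set, below the floor, had an RMA difference of 0.18. MAL2, a protein of polarised traffic, differed by -2.92 in RMA and by -3.45 in MAS5, its CD133+ level being under the floor. EPCAM was below the floor in both populations. Among the genes not counted, another probe set past the floor differed by 1.74 in CLDN3 and by 1.23 in KRT7. The probe sets that stood for these genes differed by 0.46 and -0.06 in RMA. The lowest difference of another probe set past the floor was -0.45, in TJP1. Of 21 mesenchymal genes above the floor, 2 were higher by the count rule and none lower, at a median of 0.18. TGFBI, a secreted matrix protein, was 2.46-fold higher. FSTL1, a secreted glycoprotein, differed by 1.46 in RMA and by 1.03 in MAS5, its CD133- level being under the floor, and its other probe sets, below the floor, had RMA differences from -0.29 to 0.11. FN1, the fibronectin gene, picked after its values were seen, had RMA levels of 12.30 in CD133+ and 12.72 in CD133-. Of the listed collagen genes, COL1A2, COL3A1, COL5A1 and COL6A3 were below the floor. COL1A1, COL5A2 and COL6A1 were above it, with RMA differences of 0.19, 0.86 and -0.23, and were not counted.

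Of 10 type III intermediate filament and related genes above the floor, INA alone met the count rule, as higher, at a median of 0.00. INA, the neuronal filament protein alpha-internexin, had RMA levels of 8.07 in CD133+ and 6.01 in CD133-. It was 4.17-fold higher. SYNM, whose product synemin assembles with vimentin, had RMA levels of 7.32 in CD133+ and 8.21 in CD133-, a difference of -0.89 that was not counted.

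**Figure D4:**
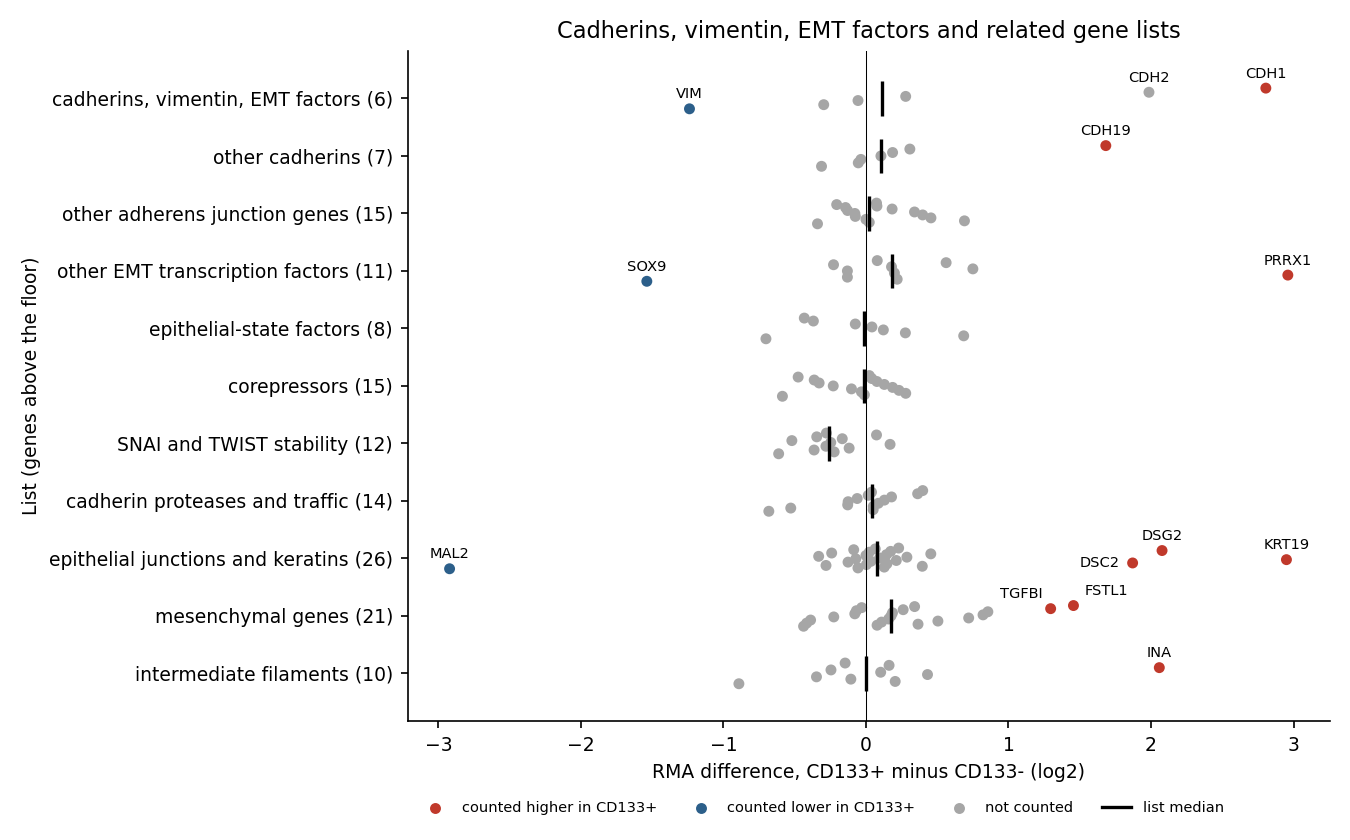
RMA difference (log2) of each gene above the floor, by list, with the number above the floor in brackets and a black bar for the list median. Red points were counted as higher and blue points as lower in CD133+, and grey points were not counted. List medians lie between -0.26 and 0.18, and the counted genes are 1 to 4 per list where there are any.

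Markers of other cell types were read because VIM and CDH2 are high in stromal cells. Of 10 fibroblast and stellate markers 3 were above the floor and none was counted, and their summed MAS5 intensity was 1127 in CD133+ and 575.2 in CD133-. COL1A1 made up most of both sums. LUM, below the floor, had the largest RMA difference of the list, 2.53, with MAS5 intensities of 131.7 in CD133+ and 14.7 in CD133-. The other markers below the floor ran from -0.08 to 0.21 in RMA. Of 8 endothelial markers 7, CDH5 among them, were below the floor. PECAM1 was counted as lower, 3.38-fold, with its other probe sets past the floor between -1.96 and 0.17, and the sums were 379.7 in CD133+ and 1014 in CD133-. Of 9 leukocyte markers with a probe set 4 were above the floor. PTPRC, the defining leukocyte gene, was not among them. LYZ was 3.31-fold higher, and the sums were 10656 in CD133+ and 4334 in CD133-, most of it from LYZ. Of 8 hepatocyte and liver tumour markers 7 were above the floor, and ALB, AFP and GPC3 were counted as lower, with sums of 64381 in CD133+ and 94469 in CD133-. The part of these markers in the differences of CDH1, CDH2 and VIM was not tested.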

How the data were processed

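The authors deposited MAS5 output as linear intensity values and RMA output as log2 values, per the labels, for 1 CD133+ and 1 CD133- population. Per the submitters' processing notes the software was GCOS with MAS5 or RMA. Versions and the set of arrays normalized together were not given in the sources used here. The RMA and MAS5 columns were treated as 2 processings and never as replicates. Of 54675 probe sets, 41097 had 1 gene in GEO's platform annotation and 41043 of these took a current symbol through a RefSeq table of GRCh38.p14, while 1801 had several genes and 11777 none listed.

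The difference was RMA CD133+ minus CD133-, and the log2 MAS5 ratio was computed with no pseudocount. The number of arrays, 1 for each population in each processing, limits precision, and no p-value is given. Differences were computed with Python 3.11.15, pandas 2.3.3 and numpy 2.4.6. The count rule was run on simulated data whose planted changes lay well past its threshold, with noise below the spread between probe sets here. That run does not give the error rate of the rule in these data. Named genes were all listed members, the counted genes of each related list (up to 6) or else its 3 largest differences, and others as stated. Members and lists were chosen with earlier results of these data known. Alternatives changed the processing, pseudocount, floor, probe sets, threshold and centring.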

Additional observations from a re-analysis of the deposited data

How the results depend on the processing

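CDH1 was counted as higher and VIM as lower under 8 of 9 alternatives. The exception left out _x_at and _s_at probe sets, which removed CDH1 and VIM and left 0 genes higher, 0 lower and 0 probe sets counted, because neither gene has another type of probe set. CDH2 joined CDH1 as the second higher gene, giving 2, with RMA alone and with a threshold of 1.5-fold in both processings, and RMA alone counted 5 probe sets against 3. Over the alternatives that gave a value the difference ran from 2.04 to 2.87 for CDH1 and from -1.29 to -1.22 for VIM, and that of CDH2 was lowest at 0.82, with 50 added to the MAS5 values. Of 58 differences of single genes, 50 stayed within the RMA spread of 0.35 and 8 moved further, and no counted gene changed sign. Many of the 50 were fixed in advance, since a changed floor left each value as it was and centring moved all by 0.02. The count of 50 is thus no measure of robustness. No paired analysis was possible because each population has 1 array per processing. Low intensities limit ZEB2, SNAI2 and TWIST1, whose MAS5 ratios rest on values of at most 34.8.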

Other observations

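Further members of the cadherin superfamily were grouped by symbol after the values above were seen. Of 48 protocadherin genes with a probe set, 12 were above the floor and none was counted, at a median RMA difference of 0.09. PCDH9 had the highest, with RMA levels of 5.88 in CD133+ and 5.10 in CD133-, the CD133- value under the floor, and PCDHAC1 the lowest, at -0.35. Of 9 FAT, DCHS and CELSR genes 4 were above the floor and none was counted. FAT1, a large cadherin that acts in cell contact and Hippo signalling, had RMA levels of 7.75 in CD133+ and 8.32 in CD133-. Among 10 cadherin-related and calsyntenin genes 5 were above the floor, from -0.34 for CDHR2 to 0.44 for CLSTN1, and none was counted. These groups thus added no counted gene to CDH1, CDH19, DSC2 and DSG2 from the lists, all higher in CD133+, and CDH2 was not counted. CDH19 was 1 of 7 genes above the floor in its list. Among all genes above the floor the shares were 2.25% for higher and 1.09% for lower. DSC2 and DSG2 were the only desmosomal cadherins named in their junction list, and the further ones were not looked up. The counted genes therefore give no rate for the cadherin superfamily.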
